A study of Homo sapiens with 3 samples.

Results

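The nuclear genes for the subunits of the respiratory chain and of ATP synthase were followed in HT29 cells, an established human colorectal cancer line, exposed for 24 h to a linderapyrone derivative. The 3 groups were DMSO, the solvent, then 5 µM and 20 µM of the derivative, with 1 array each, and the study asked which genes differ in expression between derivative and DMSO. Doses are in µM, as in the treatment labels, although titles write mM. All cells grew in low-glucose medium with serum. Members were all probes whose gene symbol in the platform annotation begins like a subunit of complexes I to V (NDUFA, NDUFB, NDUFC, NDUFS or NDUFV with a number, SDHA to SDHD, UQCR, CYC1, COX4 to COX8, or ATP5). This gave 102 of 24460 gene probes, for 92 of 18639 genes. Of these, 79 genes encode subunits: 35 of complex I, 3 of complex II, 8 of complex III, 16 of complex IV and 17 of complex V. The other 13 matched by name only, as pseudogenes, a divergent transcript, a readthrough gene, the ATP synthase inhibitor ATP5IF1 and the supercomplex factor COX7A2L. The subunit genes SDHB, UQCRFS1 and NDUFA4, and the 13 subunits encoded by mitochondrial DNA, were not analysed here.

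Complexes I to IV pass electrons from NADH and succinate to oxygen and, except for complex II, pump protons across the inner mitochondrial membrane. Complex V, ATP synthase, lets the protons return and makes ATP. Subunits come from both nuclear and mitochondrial genes, and many nuclear ones carry sites for the transcription factors NRF1, GABP of the ETS family, and YY1 near their starts. Cultured colorectal cancer cells make ATP by respiration as well as by glycolysis.

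Each spot's brightness was read on a 1-colour array. The detection threshold of an array was the mean plus 2 SD of its blank and negative control spots, and it lay between 79.4 and 82.5 on the 3 arrays, on which between 85.6% and 86.2% of gene probes were detected. Ratios are log2 of background-corrected signal plus 50, normalized between the arrays so that their value distributions were equal. With 1 array a group there was no replicate and no test, so the variation among cultures is unknown. The spread of measurement was read from genes with 2 detected probes, 2003 to 2017 genes a comparison. It gave an SD of 0.15 for a single ratio of 20 µM to DMSO, 0.11 for 5 µM to DMSO and 0.12 for 20 to 5 µM. These SDs pool genes of every brightness and were not taken apart for bright genes, which most subunit genes are. A gene was counted as lower or higher when its value was at least 20% lower or at least 25% higher, which are the same distance on the log2 scale, just above 2 such SDs for 20 µM to DMSO. In RNA from a whole culture, a lower level in each cell and fewer cells with the transcript cannot be told apart.

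Of the 79 subunit genes, 77 were detected on all 3 arrays. The 2 that were not, COX7B2 and COX8C, are isoforms known from testis. At 20 µM against DMSO, 71 of the 77 genes had a ratio below 0, a direction shared by 47.1% of the 16062 genes tested. The median ratio of the subunit genes was -0.27, against 0.0071 for all genes. At least 20% lower were 27 subunit genes, against 7.32% of all genes, and 0 were at least 25% higher, against 5.85%. Brighter genes were more often at least 20% lower. With genes ordered by brightness into 10 bins of like size, the brightest bin held 55 of the 77 subunit genes. In that bin 16.8% of all genes were at least 20% lower, a closer comparison, which the 27 of 77 still exceeded. With the arrays scaled to a common median, 46 subunit genes were at least 20% lower, against 10.7% of all genes. With value distributions made equal, no subunit gene reached 2-fold, which 0.324% of all genes did downward and 0.442% upward. In the authors' deposited table UQCRB, whose probe was near the detection threshold, stood at -1.12, beyond 2-fold. With distributions made equal, the share of all genes 2-fold lower at 5 µM against DMSO was 0.00622% and 2-fold higher 0.0498%. At 20 against 5 µM it was 0.0935% and 0.131%, and both comparisons had 0 subunit genes at 2-fold. The lowest ratio was -0.65 (NDUFA2) and the highest 0.16 (NDUFV3). Differences were small for each gene, and most genes shared the direction.

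At 5 µM against DMSO, 63 of 77 subunit genes had a ratio below 0, against 47.9% of 16075 genes tested. Their median was -0.10 and that of all genes 0.0043. At least 20% lower were 4 subunit genes, all of complex I, against 1.87% of all genes, and 0 were at least 25% higher, against 1.82%. In the brightest bin, which held 55 of the 77 subunit genes, 4.54% of all genes were at least 20% lower. The 4 of 77 subunit genes were thus near the share among bright genes. The 4 were NDUFA6 at -0.50, NDUFB2 at -0.46, NDUFB10 at -0.37 and NDUFA3 at -0.34. On its other probe NDUFB2 stood at -0.028, so its place among the 4 depended on the probe. The count of 4 also depended on the processing. Under median scaling it was 39, with genes of every complex, where 8.05% of all genes were as low. In the authors' deposited table it was 15, where 12.6% were. Between the doses, 67 of 77 subunit genes had lower values at 20 than at 5 µM, against 50.4% of 16036 genes, with a median of -0.145. At 20 against 5 µM, 15 subunit genes were at least 20% lower, against 3.99% of all genes, and 0 were at least 25% higher, against 3.98%. In the brightest bin 11.8% of all genes were at least 20% lower in this comparison. Under median scaling 5 subunit genes were at least 20% lower between the doses, against 2.6% of all genes, and 2 at least 25% higher. Each pair of these comparisons shares an array, so they are not independent of each other.

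**Figure D1:**
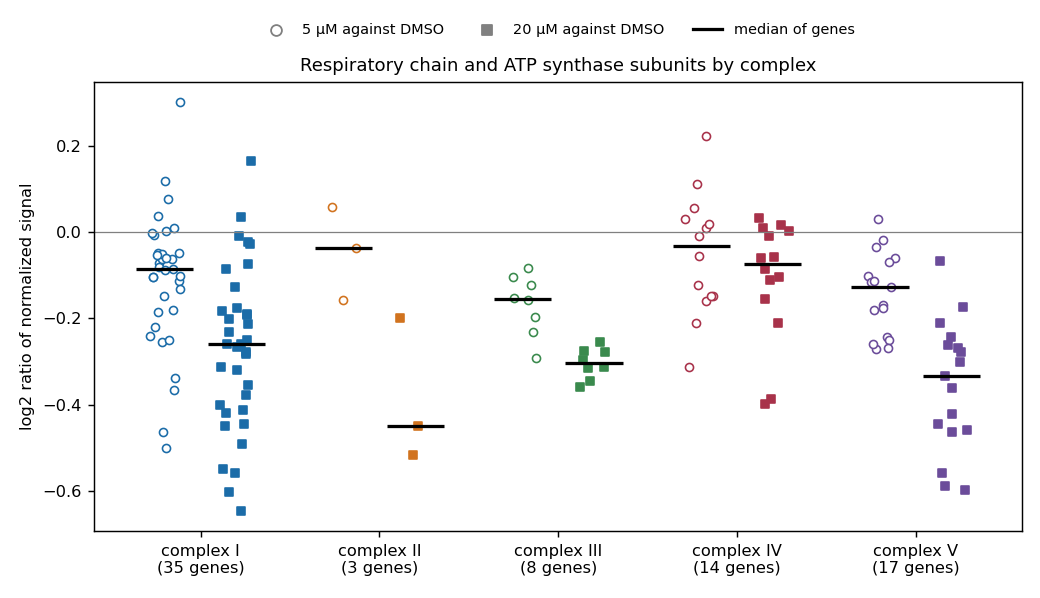
Log2 ratio of normalized signal (vertical axis) of the 77 detected subunit genes, grouped by complex, for 5 µM against DMSO (open circles) and 20 µM against DMSO (filled squares). Black bars are medians over genes, and each ratio comes from 1 array a group. At 20 µM every gene of complexes II, III and V lies below 0, while the genes of complex IV other than COX6B1 and COX8A lie between -0.21 and 0.033.

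The complexes stood at different places. At 20 µM against DMSO the median was -0.26 for complex I, -0.45 for complex II, -0.30 for complex III, -0.073 for complex IV and -0.33 for complex V. At least 20% lower were 12 of 35 genes of complex I, 2 of 3 of complex II, 2 of 8 of complex III, 2 of 14 of complex IV and 9 of 17 of complex V, beside 7.32% of all genes. In the brightest bin the share of all genes was 16.8%. Without the tissue isoforms of complex IV, a choice made after the values were seen, its median was -0.11. The medians at 5 µM were -0.085, -0.036, -0.16, -0.032 and -0.13 for complexes I to V. Those for 20 against 5 µM were -0.145, -0.29, -0.15, -0.036 and -0.19. Complex IV had the median nearest 0 at 20 µM, but with 1 array a group its distance from the other complexes could not be tested. At 5 µM its place rested on the dim tissue isoforms: without them its median was -0.135, below those of complexes I, II and V.

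Complex I takes electrons from NADH. Its lowest gene at 20 µM was NDUFA2, an accessory subunit of the NADH-oxidising arm, with normalized signals of 1118 for DMSO, 937 for 5 µM and 714 for 20 µM, making it 1.57-fold lower at 20 µM than in DMSO. NDUFA6, an accessory subunit with a LYR motif, had 330.5, 234 and 218, a 1.52-fold lower value at 20 µM, and most of its distance from DMSO was present at 5 µM. NDUFC2, of the membrane arm, had 1725, 1609 and 1171, and its second probe 247, 200 and 179. The probes of NDUFC2 gave ratios of -0.56 and -0.47 at 20 µM, so both put it lower. NDUFB7, also of the membrane arm, had 791, 698 and 541, with a ratio of -0.55. NDUFB2 had 3225, 2338 and 2293 on the probe used, while its other probe had 845, 829 and 745. Its ratios at 20 µM were -0.49 and -0.18, so the size of its difference depended on the probe.

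At the other end of complex I stood NDUFV3, a subunit beside the NADH site, with 338, 357 and 379 in DMSO, at 5 and at 20 µM, a ratio of 0.16 at 20 µM. NDUFS4, which helps to hold the NADH-oxidising module in place, had 1513, 1330.4 and 1550.5, lowest at 5 µM, and a ratio of 0.036 at 20 µM that turned to -0.079 when the arrays were scaled to a common median. NDUFC1 had 788, 971 and 776, so it was highest at 5 µM. Its ratio of 0.30 there was less than 25% higher. The remaining complex I genes had ratios between -0.45 (NDUFB10) and -0.0085 (NDUFA5) at 20 µM.

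Among the catalytic core subunits of complex I that are encoded in the nucleus, NDUFV1, which binds NADH and its flavin, had 839, 705 and 701, a ratio of -0.26 at 20 µM. NDUFV2 stood at -0.28 and NDUFS1, a dim probe with 117, 112 and 102, at -0.20. NDUFS3, NDUFS7 and NDUFS8, which carry electrons on toward ubiquinone or hold the site where it binds, stood at -0.40, -0.23 and -0.26. These 6 core subunits were all below 0 at 20 µM, with 1 of them, NDUFS3, at least 20% lower, beside 47.1% and 7.32% of all genes. By module, medians at 20 µM were -0.23 for 10 genes of the NADH-oxidising module, -0.23 for 5 of the ubiquinone module, -0.31 for 9 of the proximal membrane arm and -0.38 for 11 of the distal membrane arm. In the distal arm 6 of 11 genes were at least 20% lower and all 11 below 0. The 6 were NDUFB7, NDUFB2, NDUFB10, NDUFB1 at -0.44, NDUFB6 at -0.42 and NDUFB3 at -0.38. NDUFB2 was among them on the probe used, while its other probe, at -0.18, was not as low.

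Complex II oxidises succinate and links the TCA cycle to the chain. SDHA, its flavoprotein, had 1283 in DMSO, 1337 at 5 µM and 896 at 20 µM, so the values in DMSO and at 5 µM were near each other and that at 20 µM was 1.43-fold below DMSO. SDHC, a membrane anchor that helps to bind ubiquinone, had 1189, 1065 and 870.5, and on its second probe 877, 851 and 665. Its ratios at 20 µM were -0.45 and -0.40 on these probes. SDHD, the other anchor, had 1729, 1686 and 1507, with a ratio of -0.20. The 3 genes were all lower at 20 µM; at 5 µM their ratios lay between -0.16 and 0.059.

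Complex III passes electrons from ubiquinol to cytochrome c, and its genes lay in a narrow range. All 8 lay between -0.36 and -0.25 at 20 µM and between -0.29 and -0.083 at 5 µM. UQCR10, a small accessory subunit, had 338, 276 and 263, and UQCRC1, a core protein facing the matrix, had 553, 496 and 436. UQCRC2, the other core protein, had 2024, 1819.7 and 1627, and CYC1, which encodes cytochrome c1, had 1760.1, 1662 and 1453. These 4 genes had their highest value in DMSO and their lowest at 20 µM. UQCR11 had 820.2, 698.6 and 660.8, UQCRQ had 5187, 4824 and 4286, and the hinge protein gene UQCRH had 7138, 6559.8 and 5981. Their ratios at 20 µM were -0.31, -0.28 and -0.25, and that of UQCRB was -0.30. The UQCRB probe, at signals of 109.9, 92.2 and 89.7 before normalization, was close to the detection threshold. In the authors' deposited table it stood at -1.12 at 20 µM and -0.71 at 5 µM, so its place in the narrow range depended on the processing.

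Complex IV, cytochrome c oxidase, reduces oxygen, and its nuclear subunits surround a core made in the mitochondrion. COX6B1, which faces the intermembrane space where cytochrome c docks, had 10898, 11776 and 8264 in DMSO, at 5 and at 20 µM, a 1.32-fold lower value at 20 µM than in DMSO. COX8A, a small membrane subunit, had 4312, 3725 and 3299.6, 1.31-fold lower at 20 µM. No other gene of the complex was at least 20% lower or 25% higher than in DMSO at either dose. COX4I1, the regulatory subunit that binds ATP, had 7810.1, 7172 and 7509.5, with a ratio of -0.057 at 20 µM. COX5A had 5299.6, 5509 and 5309, a ratio of 0.0026 that became -0.062 in the authors' deposited value table and -0.15 under median scaling. COX7C had 3409, 3075 and 2944 and COX5B had 3029, 2913 and 2719.9, with ratios of -0.21 and -0.16. COX7B stood at -0.11, COX6C at -0.10 and COX6A1 at -0.086. Probes of COX7A2, with 5171, 4669.8 and 5138 and with 432, 502 and 509.9, differed in sign at 20 µM, at -0.0091 on the brighter and 0.24 on the dimmer, so its direction was not settled.

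Tissue isoforms of complex IV were dim throughout. COX4I2, known from lung, gave raw signals of 105, 98.5 and 100.2 before normalization, little above the threshold. COX6B2 had 134, 122 and 127, and COX6A2 had 97.2, 91.6 and 94.8. COX7B2 and COX8C, not detected, had at most 81.4 on any array. COX6A2 and COX7A1, the forms of heart and skeletal muscle, and COX6B2, a testis form, were as dim. The ratios of the 4 detected isoforms at 20 µM lay between -0.061 and 0.033. The probes used for the ubiquitous partners COX4I1, COX6A1, COX6B1 and COX7A2 all had signals of at least 3841 on every array, and levels of different probes cannot be set against each other beyond this.

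Complex V holds a catalytic head, a rotating ring of c subunits and a peripheral stalk. In the head, ATP5F1A, the alpha subunit, had 5849, 5202 and 3867, a 1.51-fold lower value at 20 µM than in DMSO. This rests on 1 probe, as the other probe of ATP5F1A was not detected on any array. ATP5F1B, the catalytic beta subunit, had 5522, 5056 and 4586, with a ratio of -0.27, and so stood nearer 0 than alpha. The other head subunits ATP5F1C, ATP5F1D and ATP5F1E stood at -0.36, -0.44 and -0.24. ATP5MC1, ATP5MC2 and ATP5MC3 all encode the same mature c subunit. They had 1609, 1332 and 1092 for ATP5MC1, 2669.6, 2488 and 2306 for ATP5MC2, and 5082, 4694 and 3684 for ATP5MC3, with ratios of -0.56, -0.21 and -0.46 at 20 µM. All 3 c-subunit genes were thus lower, 2 of them by at least 20%.

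In the peripheral stalk, ATP5PB had ratios of -0.46 and -0.30 on its probes and ATP5PF of -0.33 and -0.29, while ATP5PD stood at -0.26. ATP5PO had 1654, 1635 and 1466 and a ratio of -0.17. ATP5MF, a membrane subunit, had 3062, 2701 and 2037, with a ratio of -0.59 at 20 µM. ATP5MJ stood at -0.42, ATP5MG at -0.30 and ATP5ME at -0.28. ATP5MK, which helps to join ATP synthase dimers, had 3453, 3313 and 3298 and a ratio of -0.066, the nearest to 0 in the complex. All 17 genes of complex V were below 0 at 20 µM against DMSO and at 20 against 5 µM, and 16 of 17 at 5 µM against DMSO, where ATP5F1E stood at 0.030. Of all genes, 47.1%, 50.4% and 47.9% were below 0 in these comparisons. Under median scaling ATP5ME, ATP5MK, ATP5PF and ATP5F1C were above 0 at 20 against 5 µM, at 0.098, 0.081, 0.031 and 0.0093.

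**Figure D2:**
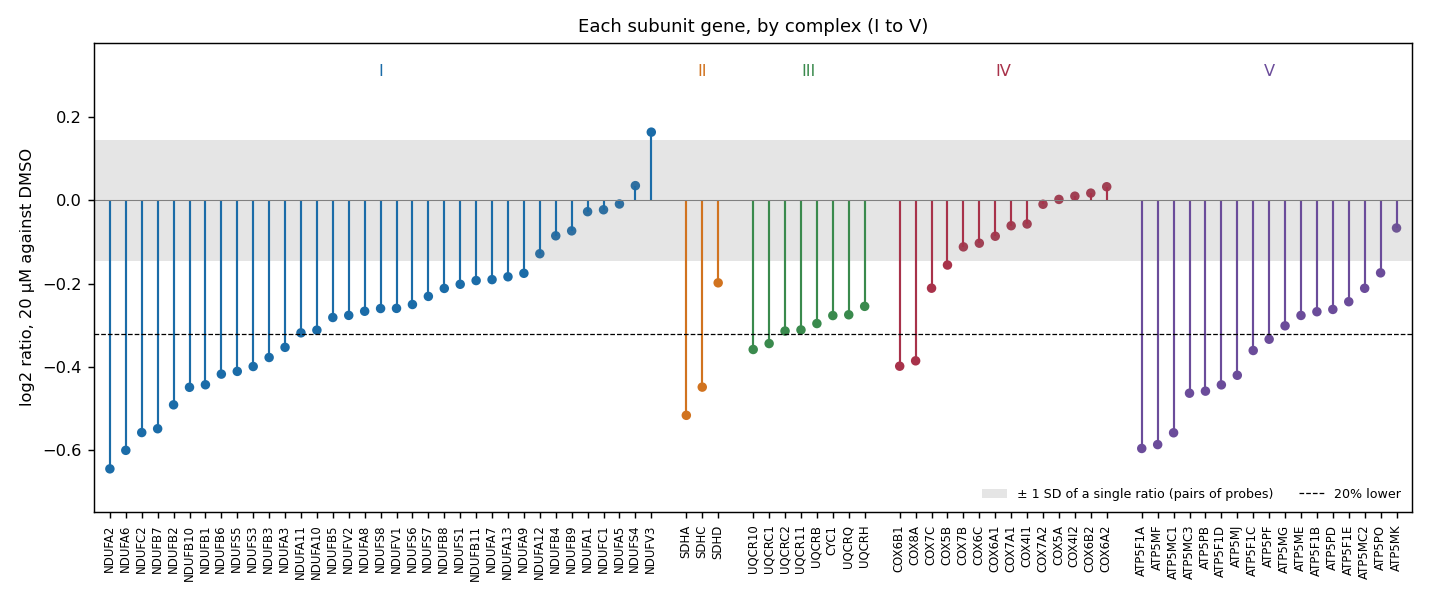
Log2 ratio of 20 µM against DMSO for each of the 77 detected subunit genes, ordered within complexes I to V. The grey band spans 1 SD of a ratio, estimated from probe pairs of genes of every brightness, on either side of 0. The dashed line marks 20% lower. The 27 genes at or below the dashed line include 12 of complex I and 9 of complex V, and NDUFV3 is the only gene above the band.

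Of the genes that matched by name but are not subunits, ATP5IF1 and COX7A2L lay at opposite ends. ATP5IF1, the inhibitor that keeps ATP synthase from running backward, had 2309.6 for DMSO, 1906 for 5 µM and 1434 for 20 µM. Its ratio of -0.69 at 20 µM was the lowest of all 90 matching genes that were detected. COX7A2L, known for joining complexes III and IV into supercomplexes, had 2419, 2414 and 3134, with the value at 20 µM above the other two. Its ratio of 0.37 made it the 1 matching gene at least 25% higher at 20 µM, and it stood at 0.23 under median scaling, less than 25% higher. The readthrough gene NDUFC2-KCTD14 at -0.43 and the pseudogenes ATP5F1EP2 at -0.42, NDUFS5P2 at -0.44, ATP5PBP6 at -0.42 and ATP5MFP3 at -0.44 were also at least 20% lower. Such probes could share transcripts with the parent genes, so these values are uncertain, and another probe of ATP5MFP3 stood at 0.16.

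**Figure D3:**
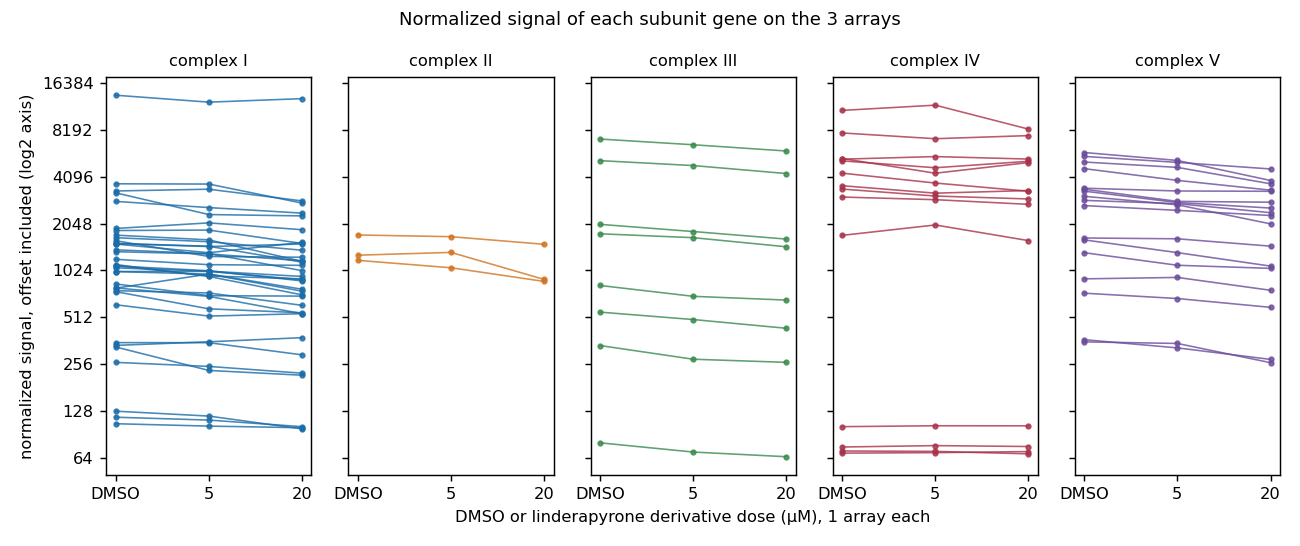
Normalized signal with the added 50 (vertical axis, log2 scale) of each detected subunit gene in DMSO, at 5 µM and at 20 µM, 1 line a gene and 1 array a dose. All lines of complexes II, III and V end lower at 20 µM than in DMSO, and COX6B1, the top line of complex IV, drops at 20 µM to 8264. Levels of different genes come from different probes and cannot be compared.

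The subunit genes were bright. With the genes tested at 20 µM against DMSO ordered by brightness into 10 bins of like size, 55 of the 77 fell in the brightest bin. Their median was -0.27, against -0.0085 for all 1607 genes of that bin. Of these 1607 genes, 16.8% were at least 20% lower. The share was 16.6% in the next brightest bin and 0% in the dimmest. At 5 µM against DMSO the median was -0.10 for the subunit genes of the brightest bin, against 0 for its 1608 genes. Of these 1608 genes, 4.54% were at least 20% lower. Median scaling, which leaves trends with brightness in place, put the brightest bin of all genes at -0.12 for 20 µM and at -0.21 for 5 µM, and the 55 subunit genes in it at -0.38 and -0.33. At 20 against 5 µM it put that bin at 0.091 and its subunit genes at -0.043. The authors' deposited table gave medians of the subunit genes of -0.32 at 20 µM and -0.19 at 5 µM on the log2 scale. All genes stood at 0.019 and -0.030 in it, and all genes of the brightest bin at -0.034 and -0.077.

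Promoter sequences from RefSeq (GRCh38.p14, 250 bases before to 50 after a gene's start) were found for 65 of the 79 subunit genes. In all, 15 short strings were searched on both strands, and 3 were kept for description after the shares and the median ratios of all 15 had been seen, so the choice of these 3 and their exact spelling is not independent of the result. The NRF1 motif, whose matches in SDHA are in capitals, was in the windows of 16 subunit genes, 24.6%, against 6.98% of all 27305 genes with a window and 9.66% of the protein-coding ones. CCGGAAG, bound by ETS factors, was in 20 subunit genes, 30.8%, against 12.2% and 16.5%. The YY1 letters AAGATGGCG were in 8, or 12.3%, against 2.14% and 3.21%. At least 1 of the 3 was in 38 of the 65 genes. Among the 12 others, CCAAT was in 36.9% of subunit genes against 42.1% of protein-coding genes, GGGCGG in 61.5% against 64.3%, TATAAA in 10.8% against 12.4% and TTGCNNNNA in 29.2% against 33.8%, all below the protein-coding share. TGACTCAGC was in 0 of the 65. Of the others, TATCGCGA was in 6.15% against 0.454%, ATGGCGGC in 16.9% against 5.23%, TGACGTCA in 6.15% against 3.0% and the ZBTB33 motif in 1.54% against 0.726%. The remaining 3 were variants of the NRF1 and YY1 letters. The median ratio at 20 µM was -0.31 for 15 detected genes with the NRF1 letters and -0.25 for 48 without them. For the ETS letters it was -0.27 with and -0.26 without, and for the YY1 letters -0.22 with and -0.26 without. These gaps between medians were not tested. Over the other strings the widest gap was that of the ZBTB33 motif, which 1 gene held, at -0.46 with and -0.26 without, and then that of TGACGTCA, which 4 genes held, at -0.40 and -0.25.

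Shown, to set the letters beside the ratios, are the 250 bases before the first listed start of 4 genes and of COX5A. The genes were picked by their ratios: the lowest of complexes I, II, IV and V at 20 µM, and the highest of complex IV, among genes with an entry and a signal above 250 in DMSO. They are written 5′ to 3′ on the gene's strand, with matches to the letters above in capitals. NDUFA2 lies at chr5:140647631-140647880 (minus strand), SDHA at chr5:218070-218319 (plus), COX6B1 at chr19:35648073-35648322 (plus), ATP5F1A at chr18:46104228-46104477 (minus) and COX5A at chr15:74938074-74938323 (minus).
NDUFA2: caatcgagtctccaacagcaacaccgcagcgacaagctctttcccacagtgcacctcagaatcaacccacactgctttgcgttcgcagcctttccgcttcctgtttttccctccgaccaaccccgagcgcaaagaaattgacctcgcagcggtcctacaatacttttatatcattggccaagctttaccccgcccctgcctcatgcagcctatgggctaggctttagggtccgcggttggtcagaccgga
SDHA: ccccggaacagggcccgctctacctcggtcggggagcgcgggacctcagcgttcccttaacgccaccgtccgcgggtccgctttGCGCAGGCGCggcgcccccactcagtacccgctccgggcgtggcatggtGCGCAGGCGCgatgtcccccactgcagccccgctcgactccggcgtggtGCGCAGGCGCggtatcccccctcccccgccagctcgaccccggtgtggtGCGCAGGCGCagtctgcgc
COX6B1: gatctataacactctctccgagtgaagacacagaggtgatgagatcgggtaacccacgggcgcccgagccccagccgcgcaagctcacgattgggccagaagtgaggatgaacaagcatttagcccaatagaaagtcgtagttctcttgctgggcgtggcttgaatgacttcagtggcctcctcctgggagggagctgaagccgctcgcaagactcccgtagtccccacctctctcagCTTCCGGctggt
ATP5F1A: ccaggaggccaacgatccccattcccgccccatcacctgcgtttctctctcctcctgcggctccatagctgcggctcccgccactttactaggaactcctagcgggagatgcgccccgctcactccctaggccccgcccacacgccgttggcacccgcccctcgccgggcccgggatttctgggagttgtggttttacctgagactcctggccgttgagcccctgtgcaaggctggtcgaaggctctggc
COX5A: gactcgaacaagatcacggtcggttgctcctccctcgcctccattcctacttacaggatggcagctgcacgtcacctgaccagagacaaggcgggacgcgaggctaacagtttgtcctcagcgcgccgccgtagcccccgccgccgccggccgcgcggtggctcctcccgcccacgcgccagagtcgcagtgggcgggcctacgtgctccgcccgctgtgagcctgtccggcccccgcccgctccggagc
SDHA, with a ratio of -0.52, held the NRF1 letters 4 times, beginning 166, 117, 68 and 19 bases before the start, at an even spacing. COX6B1, at -0.40, held the ETS letters once, beginning 12 bases before the start. NDUFA2, at -0.65, and ATP5F1A, at -0.60, held none in this stretch, and neither did COX5A. ATP5F1A counts among the genes with the ETS letters through a match elsewhere in its searched windows. The same stretches of UQCR10 and NDUFV3, the lowest of complex III and the highest of complex I, are not shown and held none, and UQCR10 has an NRF1 match outside its stretch.

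Other mitochondrial genes, in lists chosen with earlier results of these data known, were set beside the subunits. At 20 µM against DMSO, 47.1% of all genes were below 0, 7.32% at least 20% lower and 5.85% at least 25% higher, and counts in small lists are to be read beside these shares. For bright genes the 7.32% is a low comparison, as 16.8% of the brightest bin were at least 20% lower. Of 21 assembly factors of complex IV, 18 were below 0 at 20 µM and 6 at least 20% lower, with a median of -0.20. COX17, which brings copper to the complex, stood at -0.60 and COA3 at -0.52, while LRPPRC, which stabilises mitochondrial messenger RNA, stood at 0.33. Complex I assembly factors had a median of -0.076, with 2 of 17 at least 20% lower, NDUFAF1 at -0.52 and TIMMDC1 at -0.45, a share near that of all genes. Among the few factors for the other complexes, UQCC3 (complex III) stood at -0.72, SDHAF3 (complex II) at -0.54 and FMC1 (complex V) at -0.52, while TTC19 (complex III) stood at 0.37. Each of these lists held 1 gene at least 20% lower, of 6, 4 and 3 tested, too few to set beside the 7.32% of all genes.

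Mitochondrial ribosomal proteins, which translate the subunits encoded in mitochondrial DNA, had a median of -0.18, with 55 of 76 below 0, against 47.1% of all genes, 17 at least 20% lower, against 7.32%, and 2 at least 25% higher, against 5.85%. The median signal of this list, 730, lay in the bin next to the brightest, where 16.6% of all genes were at least 20% lower. MRPL16 stood at -0.85, MRPS34 at -0.65 and, at the other end, MRPL42 at 0.51. Of 13 TCA cycle genes 11 were below 0, with a median of -0.055, and 1, IDH3B at -0.34, was at least 20% lower, a share near the 7.32% of all genes. Genes of mitochondrial DNA expression and biogenesis had a median of -0.056, with 11 of 18 below 0 and 7 above. TFAM, which packages and transcribes mitochondrial DNA, stood at -0.49, YY1 at -0.38 and, at the other end, TFB2M at 0.25. NRF1, GABPA and GABPB1, named for the motifs after their values were seen, stood at -0.067, 0.069 and 0.063. Cytochrome c and the carriers had a median of -0.049, with 4 of 8 below 0.

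Import and chaperone genes had a median of 0.038, with 3 of 21 at least 25% higher, against 5.85% of all genes, and 0 at least 20% lower, against 7.32%. Among them TIMM17A, a channel subunit of the inner membrane, stood at 0.73 and the matrix protease LONP1 at 0.68. Of 15 glycolysis genes, 8 were at least 20% lower, against 7.32% of all genes, 2 were at least 25% higher, against 5.85%, and the median was -0.34. The median signal of this list, 856, lay in the brightest bin, where 16.8% of all genes were at least 20% lower. LDHA, lactate dehydrogenase A, stood at -1.29 and was the 1 gene of these lists at least 2-fold apart, while HK2, hexokinase 2, stood at 0.41 and PFKP, a phosphofructokinase, at 0.34. The lists did not share 1 direction at 20 µM. At 5 µM the medians were -0.16 for complex IV assembly, 0.028 for complex I assembly, -0.030 for the mitochondrial ribosome, 0.055 for import and chaperones and -0.088 for glycolysis.

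Markers were read to check the cells. Of 9 colorectal epithelial markers, 8 had a probe and all 8 were detected, with signals from 92.6 (CDX2) to 56135 (KRT18) in DMSO. At 20 µM against DMSO KRT20 stood at 0.92, CEACAM5 at 0.58, VIL1 at -0.48 and KRT18 at -0.40. Of 4 fibroblast markers, the collagens COL1A1 and COL1A2 were not detected, while DCN had signals of 231, 218 and 211 in DMSO, at 5 and at 20 µM and LUM at most 109.6. The leukocyte gene PTPRC and the endothelial gene PECAM1 were not detected, and CD3E, CDH5 and VWF had at most 99.7 and CD14 at most 146. The part of the epithelial markers' differences in the subunit values was not tested.

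**Figure D4:**
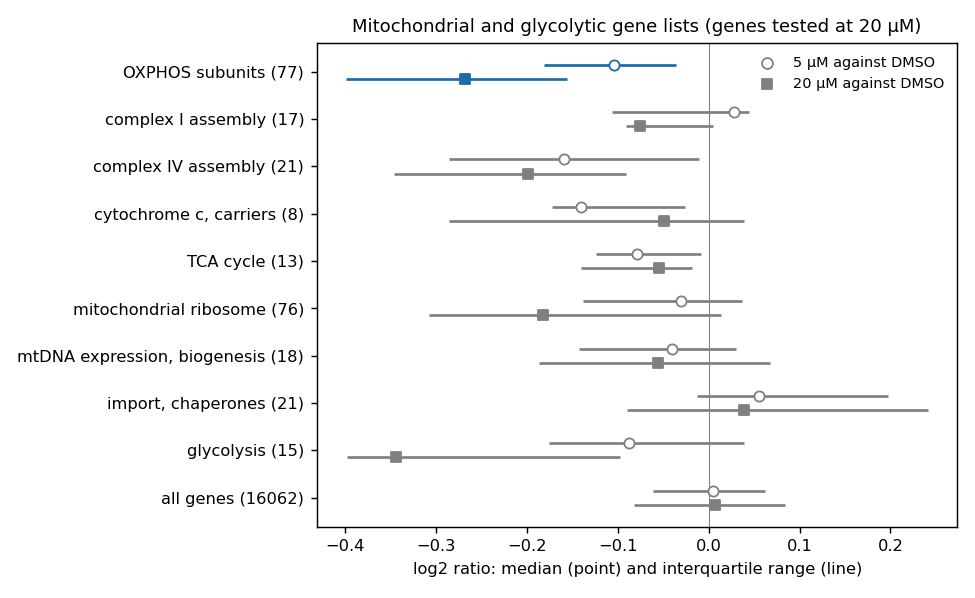
Median log2 ratio (points) and interquartile range of the genes (lines) of the subunit genes, of other mitochondrial and glycolytic lists and of all genes tested, for 5 µM (open circles) and 20 µM (squares) against DMSO, with the number of genes tested at 20 µM in brackets. The subunit genes, glycolysis, complex IV assembly and the mitochondrial ribosome have medians of -0.18 or lower at 20 µM, and import and chaperones lie above 0.

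**Figure D5:**
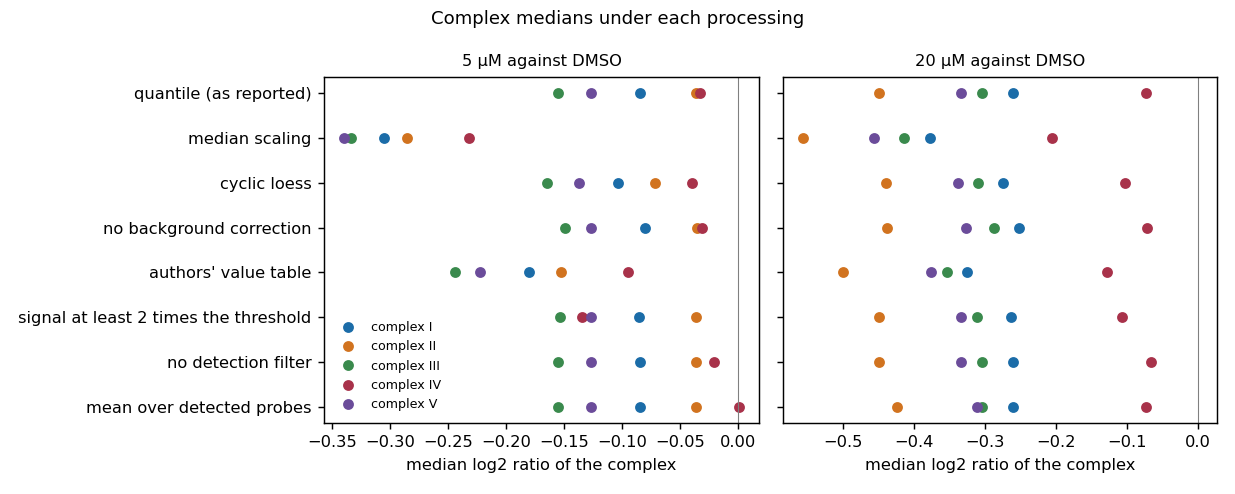
Median log2 ratio of each complex (horizontal axis) for 5 µM against DMSO and 20 µM against DMSO under 8 ways of processing, without the scanner's background column. At 20 µM complex IV is nearest to 0 in each row, between -0.20 and -0.066, and median scaling moves all complexes down, most at 5 µM.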

How the data were processed

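HT29 RNA was amplified, labelled and hybridised to 1-colour arrays, per the labels' protocols. The files as deposited hold each spot's median intensity in the red channel with no background taken off, per the file headers. The authors' deposited value table holds linear intensity with a median of 25 in each column, and how it was made is not stated. Spot intensity was corrected with normexp (limma 3.58.1, R 4.3.3, offset 50), taken to log2 and quantile-normalized over 24460 gene probes. A probe was detected above the mean plus 2 SD of 480 blank and negative spots, trimmed by 5% at each end. A gene took the probe detected on most arrays, then the brightest, and was tested where detected on both arrays. Calls were at least 20% lower, 25% higher, and 2-fold. With 1 array a group no test was run, and precision is limited by how few arrays there are. The normalization was also run on simulated data in which few probes differed, as many up as down. Such data cannot show how it handles wider or one-sided differences.

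The members, gene lists and the size of a call were chosen with earlier results of these data known. Named in full were, per complex, the 4 lowest and 2 highest genes at 20 µM, core subunits, isoforms and genes whose probes disagree, and in other lists at most the 2 lowest and 2 highest. Symbols came from the platform annotation, of which 21675 of 21707 probes matched a GRCh38.p14 gene record. Promoters were RefSeq's. The 3 motifs shown were picked from 15 searched, after their shares were seen. Alternatives changed the scaling, background, value source, filter and probe choice.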

Additional observations from a re-analysis of the deposited data

How the results depend on the processing

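Over the alternatives other than the scanner's background column, the median of all subunit genes ran from -0.38 to -0.26 at 20 µM against DMSO, from -0.33 to -0.097 at 5 µM against DMSO and from -0.16 to -0.053 at 20 against 5 µM. Scaling to a common median moved the 5 µM medians to -0.33 for all subunits and to -0.31, -0.29, -0.33, -0.23 and -0.34 for complexes I to V, with 39 genes at least 20% lower, where 8.05% of all genes were and the brightest bin of all genes moved to -0.21. It gave 46 such genes at 20 µM against DMSO, where 10.7% of all genes were, and 5 lower and 2 higher at 20 against 5 µM, where complex IV turned to 0.0054. The authors' deposited table gave 15 genes lower at 5 µM, where 12.6% of all genes were, and -0.15 for complex II. The mean over probes turned complex IV at 5 µM to 0.0011. The alternatives without tissue isoforms and with the other probe were added after seeing the data.

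The scanner's background column tracked the spot signal (Spearman rho across probes 0.962 to 0.967, probes not being independent replicates). With it, at 20 µM against DMSO 46 of 77 subunit genes were below 0, against 47.3% of all genes. At least 20% lower were 28, against 9.64% of all genes, and at least 25% higher were 16. The share of all genes at least 25% higher under this column was not taken in any comparison. Complex II stood at -0.70, IV at 0.042 and V at -0.17. At 5 µM against DMSO 39 subunit genes were below 0, against 42.9% of all genes, 29 lower, against 8.0%, and 20 higher. Complexes I, II, IV and V stood at 0.075, -2.51, 0.034 and -0.41. At 20 against 5 µM 42 subunit genes were below 0, against 51.0% of all genes, 25 lower, against 9.04%, and 22 higher. Complexes II to V stood at 1.23, 0.0029, 0.00048 and 0.50. The cause was not tested. No paired analysis was possible because each group has 1 array. Culture-to-culture spread is unknown.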
